A study of Mus musculus with 12 samples.

Results

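To ask whether loss of Mlkl alters the open chromatin of old hematopoietic stem cells (HSCs), 3 summit lists from aged wild-type (WT) mice were compared with 3 from aged Mlkl-/- mice. These are 6 of the 12 ATAC-seq lists of the series, all made from bone marrow HSCs of 18-month-old C57BL/6 mice. The other 6 lists, from 3-month-old mice of the same genotypes, entered the shared catalogue, the list length, the choice of tested regions and the limma fit. They were also used wherever the ages are compared. ATAC-seq uses a transposase that cuts accessible DNA, and a summit is the base where the cut signal of a peak is highest. Each aged replicate was a pool of HSCs from several mice, sorted as lineage-negative, cKit-positive, Sca1-positive, Flk2-negative, CD48-negative and CD150-positive cells, and all replicates were processed on 1 day. The methods state that both sexes were used without distinction. Mlkl-/- mice lack the gene in every cell, so an effect on HSCs cannot be told apart from one of their surroundings.

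MLKL is the pseudokinase at the end of the necroptosis pathway. Death receptors, Toll-like receptors and ZBP1 signal through RIPK1 and RIPK3, RIPK3 phosphorylates MLKL, and phosphorylated MLKL assembles at membranes and can permeabilise them. HSCs are rare self-renewing cells that give rise to all blood lineages. With age they grow in number and favour myeloid and platelet over lymphoid output, and their chromatin changes at many distal elements.

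The score of a summit is the −log10 of the q-value given by the peak caller. Summits scoring 3 or more on chromosomes 1 to 19 and X were kept, and each list was shortened to its 35696 highest summits, the length of the shortest of the 12 lists. Each summit was widened by 250 bp to either side, and overlapping windows of all lists were joined into 52749 regions. A region is called in a list when a summit of the shortened list lies in it, and the full list is the same list before shortening. Of these regions, 44807 were called in at least 1 of the 6 aged lists. The 38058 regions called in at least 3 of the 12 lists were tested. Within each list, regions were ranked by score and the ranks turned into normal scores. A value is such a normal score, so a difference is one of relative rank and not of accessibility. Groups are said to separate when all 3 values of 1 genotype lie above all 3 of the other, which concerns ranks, and raw scores can still overlap because the lists differ in scale. Regions called in 3 of 3 Aged Mlkl-/- lists and in 0 of 3 Aged WT lists are named knockout-only, and the reverse WT-only.

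The regions below carry the comparisons that follow. They are those called by 1 genotype at both ages, 3 knockout-only regions without any WT summit, the regions with the lowest p and the largest gap, the Mlkl and Irf1 loci, and 1 of the strongest regions shared by both genotypes. Each line gives 201 bases of the plus strand of GRCm38 (mm10, from RefSeq) centred on the highest summit. Capitals mark matches on either strand to the letters TGANTCA (AP-1), TGACGTCA (CRE), AGGAAGT (ETS), TGTGGTT (RUNX), AGATAAG (of GATA factors), CAGNGGGC (CTCF), GAAANNGAA (IRF) and GGGANTTCC (NF-kB), except in the last line.
Dop1a intron, knockout-only at both ages (RUNX and IRF motifs), chr9:86476904-86477104: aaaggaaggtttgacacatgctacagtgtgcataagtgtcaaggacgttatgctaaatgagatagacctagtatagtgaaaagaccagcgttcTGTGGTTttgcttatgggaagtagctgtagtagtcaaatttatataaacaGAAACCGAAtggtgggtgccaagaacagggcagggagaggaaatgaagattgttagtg
Nmnat2 intron, WT-only at both ages (no motif), chr1:152956185-152956385: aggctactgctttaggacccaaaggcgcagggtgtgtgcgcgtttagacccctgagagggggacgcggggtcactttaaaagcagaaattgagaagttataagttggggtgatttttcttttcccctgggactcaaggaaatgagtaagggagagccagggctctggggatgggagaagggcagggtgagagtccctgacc
Intergenic near Gm14319, WT-only at both ages (no motif), chr2:167895026-167895226: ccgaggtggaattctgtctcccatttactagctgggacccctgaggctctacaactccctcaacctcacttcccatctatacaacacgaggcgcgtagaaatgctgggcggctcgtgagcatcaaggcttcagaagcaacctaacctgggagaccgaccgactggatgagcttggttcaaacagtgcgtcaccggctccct
Jmjd1c exon 1, WT-only at both ages (no motif), chr10:67127249-67127449: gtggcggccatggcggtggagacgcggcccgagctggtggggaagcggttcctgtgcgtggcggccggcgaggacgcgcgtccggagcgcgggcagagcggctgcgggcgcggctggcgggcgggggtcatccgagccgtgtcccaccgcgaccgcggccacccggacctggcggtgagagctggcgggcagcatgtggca
Upstream of Pdgfd, knockout-only without any WT summit (IRF motif), chr9:6165184-6165384: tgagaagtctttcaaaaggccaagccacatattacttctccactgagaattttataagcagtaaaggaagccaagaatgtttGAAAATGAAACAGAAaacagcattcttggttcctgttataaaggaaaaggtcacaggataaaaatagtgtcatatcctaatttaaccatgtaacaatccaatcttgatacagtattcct
Downstream of 4930543K20Rik, knockout-only without any WT summit (no motif), chr10:37257650-37257850: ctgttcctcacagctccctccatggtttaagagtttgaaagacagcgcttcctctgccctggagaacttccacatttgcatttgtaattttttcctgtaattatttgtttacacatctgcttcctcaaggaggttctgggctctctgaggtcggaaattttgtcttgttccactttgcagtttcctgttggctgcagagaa
Cmip intron, knockout-only without any WT summit (RUNX motif), chr8:117371367-117371567: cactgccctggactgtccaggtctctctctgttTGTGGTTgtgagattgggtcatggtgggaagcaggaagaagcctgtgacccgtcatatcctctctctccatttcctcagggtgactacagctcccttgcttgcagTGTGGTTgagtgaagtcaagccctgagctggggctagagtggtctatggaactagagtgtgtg
Ccnk intron, lowest unadjusted p (AP-1 motif), chr12:108193994-108194194: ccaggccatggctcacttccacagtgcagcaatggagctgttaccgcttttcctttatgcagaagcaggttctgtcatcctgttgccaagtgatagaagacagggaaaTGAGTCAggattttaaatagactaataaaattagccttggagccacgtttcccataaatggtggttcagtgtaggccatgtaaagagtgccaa
Rcbtb1 intron, largest gap between the genotypes (AP-1 motif), chr14:59231999-59232199: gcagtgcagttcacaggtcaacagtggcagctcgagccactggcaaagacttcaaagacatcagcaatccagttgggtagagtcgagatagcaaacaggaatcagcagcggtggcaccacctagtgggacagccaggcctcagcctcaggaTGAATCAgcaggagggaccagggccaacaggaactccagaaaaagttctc
Upstream of Mlkl (CTCF motif), chr8:111343346-111343546: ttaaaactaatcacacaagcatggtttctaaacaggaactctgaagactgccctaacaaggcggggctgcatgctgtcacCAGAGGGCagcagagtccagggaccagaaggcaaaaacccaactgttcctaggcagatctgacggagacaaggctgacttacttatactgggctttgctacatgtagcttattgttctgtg
Irf1 start (no motif), chr11:53769836-53770036: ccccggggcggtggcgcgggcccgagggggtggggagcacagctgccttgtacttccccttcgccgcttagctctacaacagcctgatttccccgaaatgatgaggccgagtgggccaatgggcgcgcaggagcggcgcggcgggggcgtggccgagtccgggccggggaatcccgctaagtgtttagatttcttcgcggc
Near Gm47397, among the strongest shared regions (capitals: letters of the mitochondrial genome), chr12:97061488-97061688: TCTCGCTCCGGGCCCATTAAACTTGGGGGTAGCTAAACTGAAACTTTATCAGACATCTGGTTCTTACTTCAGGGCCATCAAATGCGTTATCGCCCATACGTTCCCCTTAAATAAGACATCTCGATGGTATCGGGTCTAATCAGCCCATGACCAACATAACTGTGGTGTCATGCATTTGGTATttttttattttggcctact
Matches describe letters and not binding. AP-1 letters stood in 10.1% of all tested regions of this width, RUNX letters in 10.4%, ETS letters in 16.05%, CTCF letters in 8.92%, IRF letters in 6.74%, GATA letters in 4.15%, NF-kB letters in 1.47% and CRE letters in 1.30%.

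The lists of both genotypes were of similar length. Before shortening, the 3 WT lists held 55450, 50966 and 58617 summits, a mean of 55011 ± 3844 (SD, n = 3), and the 3 Mlkl-/- lists 57821, 47007 and 61465, a mean of 55431 ± 7519. The difference of 420 summits gave an exact permutation p of 1.0, where 0.1 is the smallest p that 3 lists against 3 allow. Summits no more than 1 kb from a gene start made up 48.8% ± 3.74 of the WT lists and 46.3% ± 1.19 of the Mlkl-/- lists (exact permutation p = 0.4). This difference of -2.48 percentage points was -4.53 without Aged WT 3 (exact permutation p = 0.1, the smallest possible) and -0.865 without Aged WT 2 (exact permutation p = 0.7). The files hold no read counts, so the depth behind a score is unknown. The lowest score kept ran from 5.97 in Aged Mlkl-/- 2 to 9.03 in Aged Mlkl-/- 3, and from 6.69 to 7.60 in WT. No aged list had a summit within 1 kb of the starts of Kdm5d, Uty, Ddx3y or Eif2s3y on chromosome Y (0 in each of 6), and Aged WT 3, Aged Mlkl-/- 1 and Aged Mlkl-/- 2 had one at Xist. The files of Aged WT 3 and Aged Mlkl-/- 1 lack a name tag that the other 4 carry and that the labels do not explain.

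The cell type was checked at marker genes. The starts of Kit, the receptor of stem cell factor, and of Cd34 had summits in all 3 full lists of each genotype, and so had the start of Procr, which encodes the HSC marker EPCR. No full aged list had a summit at the start of Slamf1, the gene of the gating marker CD150, nor at Cd48, Il7r, Dntt, Pax5 or Cd79a. The starts of Flt3 and Ebf1, genes of the gated-out progenitors and of B cells, had summits in 3 of 3 lists of both genotypes. None of the marker lists for B cells, T cells, erythroid cells, macrophages, stroma or endothelium held a knockout-only or WT-only region (0 in each). Of all tested regions, 0.678% were knockout-only and 0.434% WT-only. With 3 to 10 regions per list, a count of 0 therefore says nothing about these cells.

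Over all 6 lists, overlap did not follow genotype. The Jaccard index, which is the share of the regions called by either list of a pair that both of them called, averaged 0.681 for the pairs of the same genotype and 0.677 for the pairs of different genotypes. This difference of 0.00328 was smaller than the SD of 0.0222 over the 15 pairs, and each of the 10 splits of the 6 lists gave one at least as large (exact permutation p = 1.0). For 4 of 6 lists the closest list was of the other genotype. Aged WT 1 was closest to Aged Mlkl-/- 3 (0.710), and Aged WT 3 to Aged Mlkl-/- 1 (0.701). The 2 WT lists farthest apart, Aged WT 2 and Aged WT 3, shared 0.637. Aged WT 3 weighed most on this value. Without it the difference was 0.0220 (exact permutation p = 0.2), and with it left in and Aged Mlkl-/- 2 left out it was -0.00940 (exact permutation p = 0.6). The 4 tagged lists alone gave 0.0177 (exact permutation p = 0.333, the smallest that 2 lists against 2 allow).

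**Figure D1:**
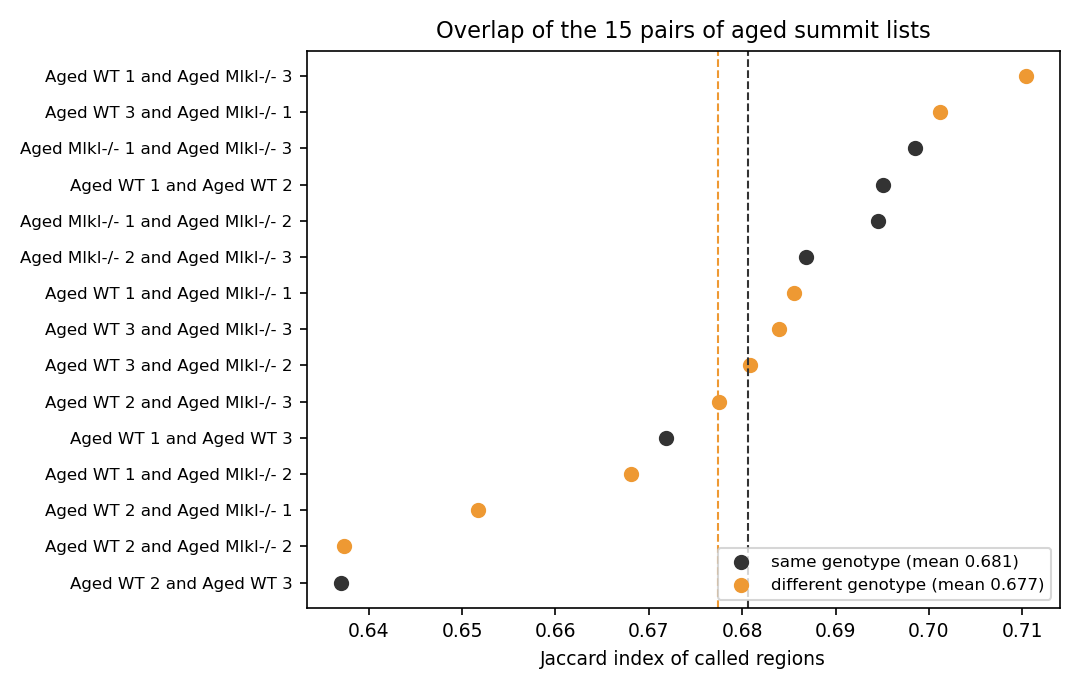
Jaccard index (x axis) of called regions for each of the 15 pairs of aged lists (y axis), black for pairs of the same genotype and orange for different genotypes, with dashed lines at the means. The means of 0.681 and 0.677 nearly coincide and the highest pair, at 0.710, joins a WT with an Mlkl-/- list.

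Among single regions, limma found none that differed between the genotypes. Of 38058 regions, 0 passed an adjusted p under 0.01 (0%), and the lowest adjusted p was 0.788. An unadjusted limma p under 0.05 was reached by 1995 regions (5.24%), 1109 of them higher and 886 lower in Mlkl-/-. Without Aged WT 3 this number was 3491, with still 0 past the adjusted threshold. The median difference over all tested regions was -0.01 and the median of its size was 0.21, below the median SE of 0.32. A difference beyond 0.67 in either direction was seen in the outer 5% of regions. Values of the 3 Mlkl-/- lists lay above all 3 WT values at 1794 regions (4.71%) and below them at 1472 (3.87%). As many or more regions separated in this way in 3 of the 10 splits of the 6 lists (exact permutation p = 0.3). Every value given below for a single region is therefore a description of regions that did not pass the test.

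Knockout-only regions numbered 258 (0.678% of tested regions) and WT-only regions 165 (0.434%). Their sum of 423 was reached in 3 of the 10 splits of the 6 lists (exact permutation p = 0.3). When 1 list was left out, so that only 5 had to agree, the counts were 812 and 502 without Aged WT 3, and at most 573 and 413 without any other list. Most of these regions were near the end of the shortened lists and not closed in the other genotype. In the full lists, 246 of 258 knockout-only regions (95.3%) had a summit in at least 1 WT list, and 87 had one in all 3. Likewise 163 of 165 WT-only regions (98.8%) had a summit in at least 1 Mlkl-/- list, and 89 in all 3. That leaves 12 knockout-only and 2 WT-only regions without any summit in the other genotype. The mean value of the calling genotype had a median of 0.15 at knockout-only and of 0.12 at WT-only regions, against 0.88 at regions shared by all 6 lists.

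The 2 groups of regions lay in different places of the annotation. Knockout-only regions were mostly distal, with 9.30% within 1 kb of a start, 46.9% in introns and 39.5% between genes, and a median distance of 9.32 kb. Of WT-only regions, 33.3% lay within 1 kb of a start and 30.9% in introns. All tested regions had 37.0% near a start, and regions called in only 1 or 2 aged lists 17.0%. The broader groups of separating regions contain the knockout-only and WT-only regions. Of those higher in Mlkl-/- without overlap 31.0% lay near a start, and of those lower 53.9%. Base composition differed as well, with a median GC share of 49.3% in knockout-only, 53.2% in WT-only and 54.2% in all tested regions. ETS letters, as in many HSC enhancers, stood in 23.3% of knockout-only and 10.9% of WT-only regions, against 16.05% of all tested regions. RUNX letters stood in 18.99% and 10.9%, against 10.4%. AP-1 letters stood in 14.0% and 11.5%, against 10.1%. In regions called in only 1 or 2 aged lists, ETS, RUNX and AP-1 letters stood in 15.6%, 10.4% and 10.0%. CTCF letters stood in 7.75% and 6.06%, against 8.92%, and IRF letters in 7.75% and 7.88%, against 6.74%. GATA letters stood in 6.20% and 4.85%, against 4.15%. CRE letters stood in 0.775% and 0.606%, against 1.30%, and NF-kB letters in 0.388% and 1.21%, against 1.47%. The shares of place, bases and letters were not set against the 10 splits. Beside these shares, the share of summits near starts in the lists was highest in Aged WT 2 (52.0%) and lowest in Aged WT 3 (44.7%), with the Mlkl-/- lists at 45.9%, 45.4% and 47.7%. The part of this spread in the result was not tested.

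**Figure D2:**
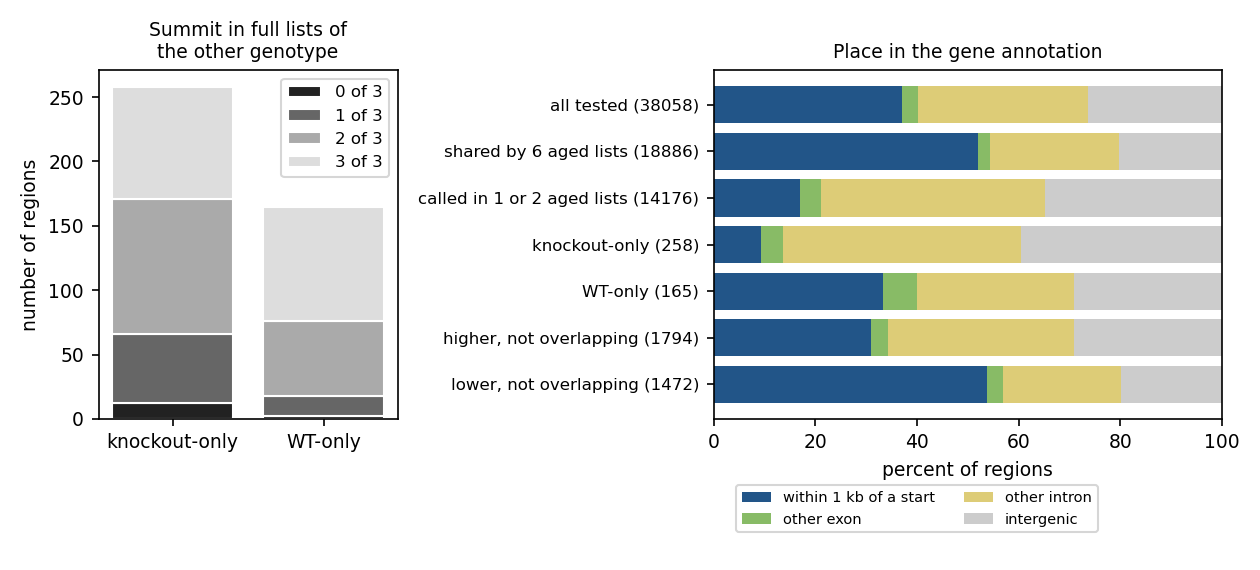
Left, number of knockout-only (258) and WT-only (165) regions by how many of the 3 full lists of the other genotype hold a summit in them. Right, percent of regions of each group within 1 kb of a start, in another exon, in another intron or between genes, with the number of regions in brackets. Knockout-only regions have 9.30% near a start and regions shared by 6 lists 52.1%.

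The 12 knockout-only regions without any WT summit were the most complete absences. Downstream of the non-coding gene 4930543K20Rik, the 3 Mlkl-/- lists scored 11.6, 9.45 and 14.8, and 3.30 kb upstream of Pdgfd, which encodes a platelet-derived growth factor, they scored 8.03, 10.6 and 15.9. In the intron of Cmip, the c-Maf-inducing protein, they scored 14.6, 6.61 and 11.96. The 3 WT lists had no summit at these places, and the largest of the 12 differences was 1.05 ± 0.30 (SE), with a limma adjusted p of 0.788. The Pdgfd region had no summit in any of the 6 young lists either. At an intron of Nepro, a nucleolar protein gene, the Mlkl-/- lists scored 13.7, 6.86 and 12.1, and at an intron of Btrc, which encodes the substrate receptor of an SCF ubiquitin ligase, 13.0, 7.50 and 10.9. An intron of the ion channel gene Hcn2 scored 11.7, 7.75 and 11.8, and a region downstream of Rpa2, a subunit of the single-strand DNA-binding complex RPA, 10.2, 7.50 and 12.2. Aged Mlkl-/- 2, the shortest list, scored lowest of the 3 at 11 of the 12 regions. The remaining 5 regions lay at Lurap1 and Pomgnt1, in introns of Itgb5, Camta1 and Zfp286, and upstream of 5033406O09Rik, with Mlkl-/- scores between 6.10 and 13.6.

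Both WT-only regions without an Mlkl-/- summit were weak. In coding exon 3 of Mcidas, the gene of a regulator of multiciliated cells, the WT lists scored 8.35, 6.97 and 9.39, and the difference was -0.79 ± 0.25 (SE, limma adjusted p = 0.808). At chr18:32114499-32115035, in an intron of the non-coding gene AC127347.2, they scored 7.93, 9.86 and 11.4. Neither region had a summit in any young list.

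**Figure D3:**
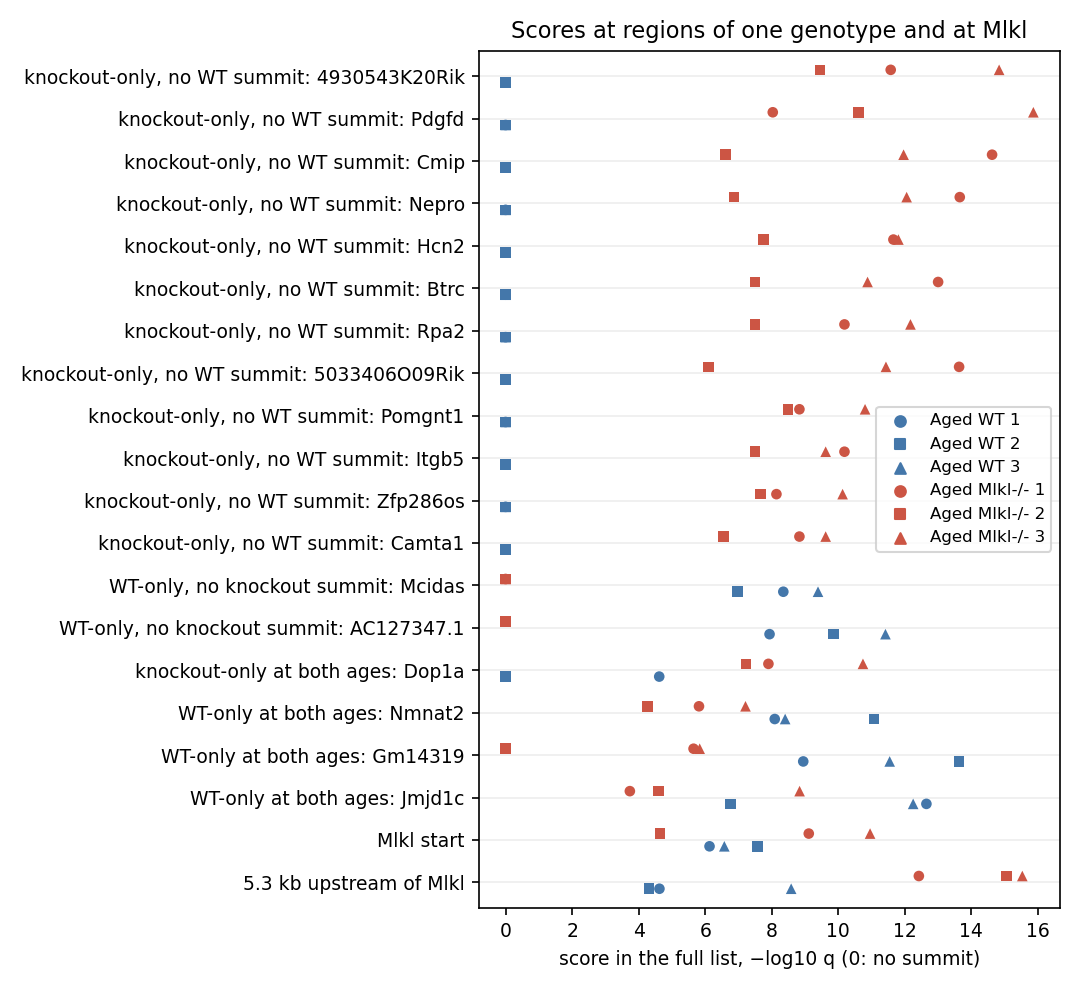
Score (x axis, −log10 q) in each of the 6 full aged lists at the knockout-only and WT-only regions that lack a summit in the other genotype, at those called by 1 genotype at both ages, and at Mlkl (y axis). Blue stands for WT, red for Mlkl-/-, the shape for the replicate, and symbols at 0 (no summit) overlie each other. In the 12 upper rows no WT list has a summit and the Mlkl-/- scores lie between 6.10 and 15.9.

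The contrast at these regions was not seen in young mice. At 3 months the difference had the same sign at 118 of 258 knockout-only regions (45.7%) and at 74 of 165 WT-only regions (44.8%), where 47.4% of all tested regions had a positive and 47.9% a negative difference. Values separated the same way at 3 months at 7 of the 258 (2.71%, against 3.61% of all tested regions) and at 8 of the 165 (4.85%, against 4.46%). Of the 1794 and 1472 regions that separated at 18 months, 85 (4.74%) and 71 (4.82%) did so in the same direction at 3 months. These shares lie close to those of all tested regions.

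Over both ages, 4 of the 38058 tested regions were called in all 6 lists of 1 genotype and in no list of the other. Agreement between the ages is part of this choice, and no other grouping of the 12 lists was counted. Of the 4 regions, 1 was called in Mlkl-/- and 3 in WT. The first lies in an intron of Dop1a, a gene of endosome-to-Golgi traffic, at chr9:86476705-86477315, with aged scores of 4.62, 0 and 0 in WT and 7.90, 7.22 and 10.7 in Mlkl-/-. In the intron of Nmnat2, an NAD-synthesising enzyme known from axons, the WT lists scored 8.09, 11.1 and 8.403 and the Mlkl-/- lists 5.81, 4.26 and 7.21. Near Gm14319 the values were 8.95, 13.6 and 11.5 against 5.65, 0 and 5.83. At the start of Jmjd1c, a gene of the JmjC histone demethylase family, they were 12.6, 6.77 and 12.3 against 3.735, 4.604 and 8.84. At 3 of these 4 regions the genotype without calls still had summits in most full lists, so the call depended on the length of the lists. In this last region 1 Mlkl-/- score, at 8.84, exceeded a WT score, at 6.77, while the ranks did not overlap. The differences at 18 months ran from -1.09 ± 0.30 to 0.72 ± 0.28 (SE), with limma adjusted p between 0.788 and 0.898.

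The lowest unadjusted p belonged to an intron of Ccnk, the cyclin partner of the transcription kinases CDK12 and CDK13. At chr12:108193835-108194351 the WT lists scored 4.82, 0 and 6.51 and the Mlkl-/- lists 13.3, 14.5 and 19.5, a difference of 1.32 ± 0.28 (SE, limma adjusted p = 0.788). None of the young lists had a summit there. Introns of Rassf2, a Ras-association domain gene, of Cdk14, a cyclin-dependent kinase gene, and of Myo3b, a myosin gene, followed, together with a region 77.7 kb upstream of Ppp3ca, which encodes the catalytic subunit of calcineurin. At Rassf2 the scores were 5.68, 0 and 4.22 in WT and 14.5, 12.8 and 13.8 in Mlkl-/-. At Ppp3ca they were 6.79, 0 and 0 against 15.9, 12.9 and 14.8. All 5 of these regions were also without a call in any young list of either genotype. This trait is favoured by the choice on low p, because the limma fit included the young lists. Uncalled regions have nearly equal young values, which lowers the SE. Each of the 5 regions was called in the 3 aged Mlkl-/- lists alone. They therefore met the minimum of 3 lists for testing only through the group in which they are high. A region without WT or young calls and with fewer aged Mlkl-/- calls was not tested. The low p of the 5 regions is thus not independent of the choice of tested regions. At Rassf2 the difference was 1.20 ± 0.27 (SE). Introns of Lypd6 and Col8a2, called in some young lists, had similar differences with larger SE (1.23 ± 0.37 and 1.20 ± 0.39). Whether the 5 regions open only with age was not tested. The widest gap between the genotypes, 1.15 in value, was seen in an intron of Rcbtb1, with 3.62, 5.36 and 5.85 in WT and 19.2, 13.2 and 16.1 in Mlkl-/-. Masked repeats made up 58.1% of the bases within 250 bp of its summit, against a median of 8.58% over all tested regions. Other knockout-only regions with wide gaps lay in introns of Lypd6 and Col8a2, near Klrb1a, which encodes a natural killer cell receptor, and upstream of Mgst2, a microsomal glutathione transferase gene.

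Among regions of low p in the other direction, those at Cass4, Intu and BC048403 were stronger and called in all 6 aged lists, and the one near Ifnlr1 was not. At 6.75 kb upstream of Ifnlr1, the receptor gene of type III interferons, the WT lists scored 16.6, 11.6 and 15.6 and the Mlkl-/- lists 7.98, 5.92 and 8.38, a difference of -1.12 ± 0.25 (SE, limma adjusted p = 0.788). In Aged Mlkl-/- 2 and Aged Mlkl-/- 3 these scores lay below the lowest score kept (5.97 and 9.03), so those lists did not call it. In an intron of Cass4, a Cas-family scaffold gene, the scores were 72.4, 61.8 and 65.3 against 38.5, 32.8 and 62.0, and at the start of Intu, a ciliogenesis gene, 50.5, 40.05 and 31.6 against 24.3, 16.2 and 25.4. At the start of BC048403 they were 32.6, 40.9 and 29.3 against 17.1, 14.4 and 18.9. The groups separated at these 4 regions, although at Cass4 the highest Mlkl-/- score of 62.0 slightly exceeded the lowest WT score of 61.8, and the young lists overlapped at each of them. The WT-only regions with the widest gaps were weaker. They lay 12.7 kb upstream of Nxph1, in introns of Ptprk, a receptor tyrosine phosphatase gene, and of Tmtc1, upstream of Naip5, an inflammasome sensor gene, and upstream of Mid2. Upstream of Nxph1 the WT lists scored 11.9, 11.1 and 12.1 and the Mlkl-/- lists 7.52, 5 and 8.397.

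The Mlkl locus itself, at chromosome 8, had 2 tested regions. The first, at the start of the gene in chr8:111337923-111338851, was present in all 6 full lists, with 6.13, 7.58 and 6.58 in WT and 9.11, 4.64 and 10.96 in Mlkl-/-, and the groups overlapped (difference 0.26 ± 0.37, SE, limma adjusted p = 0.947). Which part of the gene the allele lacks is not given in the sources used here, so a summit at the start does not check the genotype. The second region, 5.27 kb upstream at chr8:111343182-111343721 and with CTCF letters at its summit, scored 4.62, 4.30 and 8.58 in WT and 12.4, 15.1 and 15.5 in Mlkl-/-. All 3 Mlkl-/- scores were above the WT scores, with a difference of 0.96 ± 0.39 (SE, limma adjusted p = 0.898). At 3 months its scores were 4.32, 8.48 and 5.99 in WT and 4.17, 14.0 and 6.82 in Mlkl-/-, which overlap.

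The other necroptosis genes carried summits in both genotypes. The list of 15 genes had 32 tested regions within 10 kb of the genes, with a median difference of -0.04. Of the 32, 15 were positive, against 18493 of all 38058 tested regions. Without overlap 3 were higher (9.38%, against 4.71% of all tested regions) and 0 lower (against 3.87%), and 0 passed the adjusted threshold. All 3 full lists of each genotype had summits at the starts of all 15 genes, from the receptors Tnfrsf1a, Tlr3 and Tlr4 through the adaptors Tradd, Fadd and Ticam1 to the kinases Ripk1 and Ripk3. Besides the region upstream of Mlkl, those higher without overlap lay at Ticam1 and Cflar. Ticam1 encodes TRIF, which links Toll-like receptors to RIPK1, and its exon 2 scored 21.4, 19.8 and 14.8 in WT and 40.6, 18.8 and 33.5 in Mlkl-/-. Cflar encodes the caspase-8 regulator FLIP, and its start scored 11.9, 9.93 and 6.47 against 14.1, 13.8 and 18.7. At Ticam1 the lowest Mlkl-/- score lay below 2 WT scores, while the ranks separated. The limma adjusted p was 0.898 at all 3 regions.

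Genes of mitochondrial dynamics and quality control carried summits in both genotypes too. Of 39 regions at 16 genes, 17 had a positive difference, against 18493 of all 38058 tested regions. Without overlap 1 was higher and 1 lower (2.56% each, against 4.71% and 3.87% of all tested regions), and the median difference was -0.02. All 3 full lists of each genotype had a summit at the start of each of the 16 genes, among them the fusion genes Opa1, Mfn1 and Mfn2, the fission gene Dnm1l and the mitophagy genes Pink1 and Bnip3. The start of Mff, which recruits the fission GTPase to mitochondria, scored 30.9, 49.1 and 28.8 in WT and 23.8, 22.4 and 31.8 in Mlkl-/- (difference -0.48 ± 0.22, SE, limma adjusted p = 0.898). The region higher without overlap was the start of Miip beside Mfn2, with 73.8, 63.8 and 41.9 against 69.5, 67.8 and 85.1. At both starts the raw scores of the genotypes overlapped.

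Transcription factor genes of HSCs had the most regions of any list, 81 at 15 genes, of which 52 had a positive difference, with a median of 0.11. Over all tested regions 18493 of 38058 had a positive difference, with a median of -0.01. No set test was made of this list. Of the 81 regions, 4 were higher (4.94%) and 1 lower (1.23%) without overlap, against 4.71% and 3.87% of all tested regions. At the start of Hoxa9, a homeobox gene active in HSCs, the scores were 5.95, 0 and 6.96 in WT and 14.3, 6.46 and 10.4 in Mlkl-/-, which made it a knockout-only region. At the start of Meis1, which encodes a partner of HOX proteins, they were 21.7, 16.4 and 10.9 against 23.4, 21.7 and 26.03. The lowest score in WT at Meis1, 10.9, came from Aged WT 3. For 21 regions at 9 HSC surface genes the median difference was 0.08 and 0 separated in either direction.

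Genes linked to HSC ageing had 55 regions at 20 genes, with a median difference of 0.01, 3 higher (5.45%) and 1 lower (1.82%) without overlap. All shares of higher and lower regions in this paragraph stand against 4.71% and 3.87% of all tested regions. A knockout-only region lay in an intron of Wwtr1, the gene of the Hippo coactivator TAZ, with 0, 0 and 6.13 against 8.99, 6.08 and 11.2. An intron of Vwf, the von Willebrand factor gene of platelet-biased HSCs, scored 26.9, 15.7 and 22.2 against 28.3, 23.9 and 32.9. The lower region lay at the start of the metallothionein gene Mt2 beside Mt1, with 12.5, 12.1 and 15.2 against 12.4, 4.99 and 11.998. For megakaryocyte genes 2 of 24 regions were higher without overlap (8.33%) and 0 lower, and the start of Gp9, a platelet receptor subunit, scored 9.05, 9.35 and 10.1 against 14.5, 13.0 and 21.6. Of 16 regions at myeloid genes 1 was higher (6.25%) and 0 lower. Of 39 regions at lymphoid genes 1 was higher and 1 lower (2.56% each). The higher one, near Flt3 and Urad, scored 10.03, 5.17 and 7.101 against 15.5, 13.8 and 12.3, and the lower one, at the start of Satb1, a chromatin organiser of lymphoid-competent HSCs, 24.6, 26.2 and 14.98 against 16.1, 10.3 and 14.8.

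Immediate early and AP-1 genes, which respond quickly to stress and cell handling, had 45 regions at 13 genes. Of these 1 was higher (2.22%, against 4.71% of all tested regions) and 3 were lower (6.67%, against 3.87%) without overlap, and the median difference was -0.05. At Fos, which encodes a subunit of AP-1, the regions pointed in different directions. The region 1.60 kb upstream of its start scored 0, 0 and 7.05 in WT and 9.31, 8.28 and 13.1 in Mlkl-/-, and was knockout-only. The region at 0.181 kb from the start scored 14.7, 24.95 and 5.91 against 5.08, 7.89 and 9.63, and overlapped. At 5.03 kb upstream the scores were 13.7, 5.91 and 11.4 against 10.9, 14.5 and 23 and at 12.2 kb downstream 33.4, 39.98 and 37.4 against 37.7, 28.2 and 42.1. Both of these overlapped. A region 7.81 kb upstream of Nr4a1, an orphan nuclear receptor gene, scored 52.5, 44.2 and 32.8 against 27.9, 26.3 and 41.8, and the start of Dusp1, a MAP kinase phosphatase gene, 21.6, 16.6 and 16.8 against 8.69, 11.3 and 15.8. At Nr4a1 the highest Mlkl-/- score exceeded the lowest WT score although the ranks did not overlap. The lowest limma adjusted p of the list was 0.808.

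Among NF-kB and interferon genes, 1 of 41 regions was higher (2.44%, against 4.71%) and 2 were lower (4.88%, against 3.87%) without overlap. The higher one was the start of Irf1, the interferon regulatory factor that responds to interferon-gamma, where WT scored 18.2, 17.1 and 15.3 and Mlkl-/- 32.4, 25.4 and 35.2, a difference of 0.59 ± 0.18 (SE, limma adjusted p = 0.801). At 3 months the same start scored 25.2, 24.8 and 17.3 in WT and 18.7, 25.6 and 17.3 in Mlkl-/-. A region 9.64 kb from the start of Ifit1, an interferon-induced gene, scored 9.12, 9.41 and 16.1 in WT, had no summit in 2 Mlkl-/- lists and scored 10.7 in the third, and an intron of Nfkb1 scored 14.1, 8.42 and 10.5 against 4.77, 7.45 and 10.5. Genes of MHC class II had 14 regions, of which 2 were higher (14.3%, against 4.71% of all tested regions) and 0 lower (against 3.87%). The lowest difference of the list, at H2-Ab1, was -0.70 ± 0.28 (SE), and its values overlapped. One of the higher regions was a knockout-only region in an intron of Cd74, the invariant chain gene, with 0, 6.03 and 0 against 11.2, 9.04 and 9.33, and the other lay upstream of H2-Aa, with 15.2, 10.6 and 12.5 against 19.3, 19.4 and 19.6. For the markers of other cells, separate regions numbered 1 of 10 at progenitor, 0 of 10 at B-cell, 0 of 3 at T-cell, 1 of 10 at erythroid, 1 of 3 at neutrophil, 0 of 4 at macrophage and 1 of 5 at stromal genes, all higher, and 1 higher and 1 lower of 8 at endothelial genes. These lists are too short for a share to be read against the 4.71% and 3.87% of all tested regions.

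**Figure D4:**
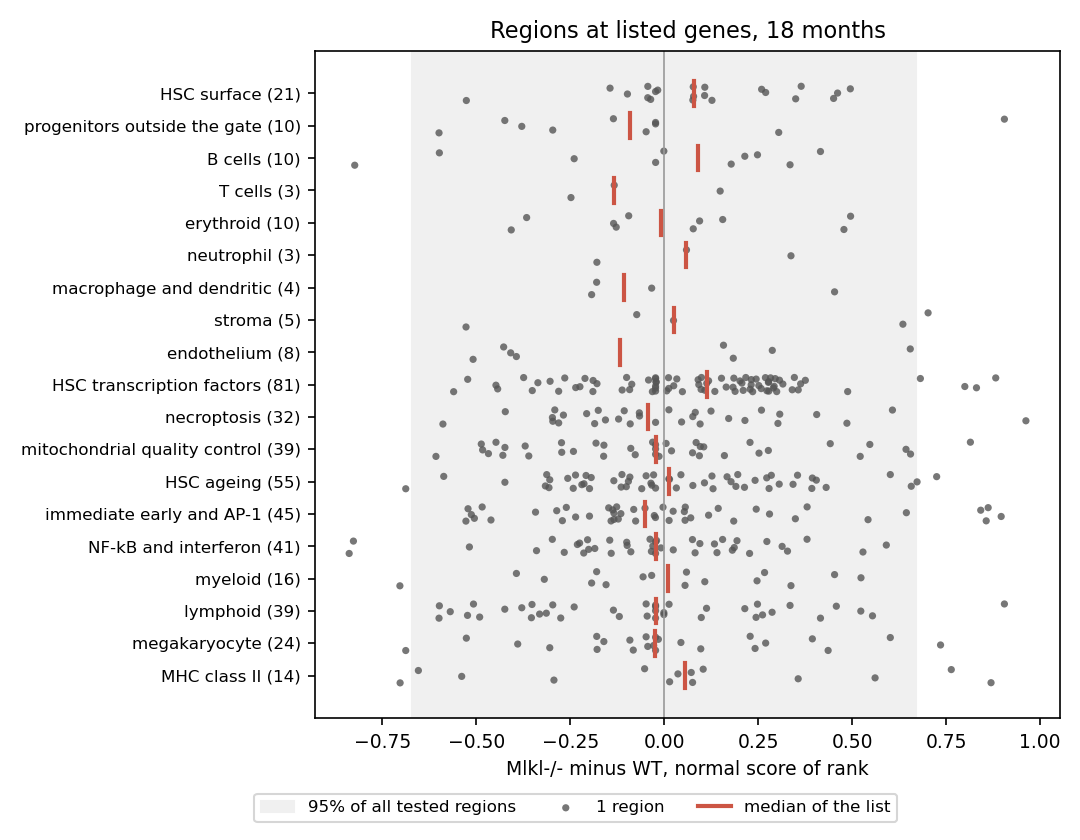
Difference in normal score between Mlkl-/- and WT at 18 months (x axis) for every tested region within 10 kb of the genes of each list (y axis, number of regions in brackets), with red bars at the medians. The grey band spans the central 95% of all tested regions by size of difference (0.67 to either side), and the medians lie between -0.13 and 0.11.

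Many regions were common to both genotypes. All 6 aged lists called 18886 of the 44807 regions called in any aged list (42.1%), and 15535 of these (82.3%) were called in the 6 young lists too. Of the shared regions, 52.1% lay within 1 kb of a start. Their ranks correlated between lists with Spearman coefficients of 0.647 to 0.820 over the 18886 regions, a description over regions that share their libraries. The medians over pairs were 0.794 for the same genotype and 0.759 for different genotypes, and were not set against the 10 splits. The lowest coefficient joined Aged WT 2 with Aged WT 3, and the highest Aged WT 1 with Aged Mlkl-/- 3. Among the shared regions, 1075 (5.69%) were higher and 937 (4.96%) lower in Mlkl-/- without overlap. Among the 5 strongest shared starts were those of Hjurp, the chaperone gene of the centromeric histone CENP-A, with scores between 91.5 and 115, and of Sel1l, a gene of protein degradation at the endoplasmic reticulum, with scores between 72.0 and 95.6. Away from starts, leaving aside repeats and mitochondrial letters by a rule chosen after the values were seen, strong shared regions lay between Gm47772 and Dpy19l1 (99.2 to 108), in an intron of Sox5 (68.0 to 93.7), in an intron of Uggt2 (62.4 to 97.3), in an intron of Lrmda (62.2 to 94.3) and near Cxcl5, a chemokine gene (61.3 to 91.8). Scores of the 2 genotypes overlapped at each of these. They did not at a region near Zfp831, of like strength, where WT scored 67.6, 61.3 and 66.5 and Mlkl-/- 81.1, 68.3 and 81.3 (difference 0.38 ± 0.27, SE). For example, the 3 WT lists scored 74.8, 71.1 and 81.0 in the Sox5 intron, against 73.5, 68.0 and 93.7 in the Mlkl-/- lists.

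The very highest scores belonged to another kind of sequence. Of the 20 shared regions with the highest minimum score over the aged lists, 6 held at least 1 run of 36 bases that also stands in the mitochondrial genome, and 4 consisted of masked repeats by at least 50% of their bases. Nuclear copies of mitochondrial DNA are known to attract reads of the mitochondrion, whose part in these scores was not tested, and no list had a summit on the mitochondrial genome itself (0 in 12 lists). Over all tested regions, 19 held such a run (0.0499%), 15 of them called in all 6 aged lists and 0 knockout-only or WT-only. The strongest, near Gm47397 on chromosome 12, scored 275, 287 and 243 in WT and 250, 253 and 251 in Mlkl-/-. At its summit 182 of 201 bases were mitochondrial letters. A region near Gm43393 on chromosome 5 scored 196, 185 and 196 against 186, 189 and 198.

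The 19 mitochondrial regions did not separate by genotype. Their median difference was 0.03, 11 of 19 were positive (against 18493 of all 38058 tested regions), and 0 passed the adjusted threshold. At the weaker ones, lists of the same genotype were far apart. Near Fhl4 the WT lists scored 23.7, 15.9 and 59.3 and the Mlkl-/- lists 53.7, 34.5 and 32.1. Near Zdhhc3 they scored 11.6, 9.86 and 23.7 against 22.1, 18.4 and 10.9. Aged WT 3 scored highest of the 6 lists at 9 of the 19 regions and Aged Mlkl-/- 1 at 4, and these are the 2 lists whose file names lack the tag. The share of mitochondrial reads in a library cannot be read from summit lists.

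**Figure D5:**
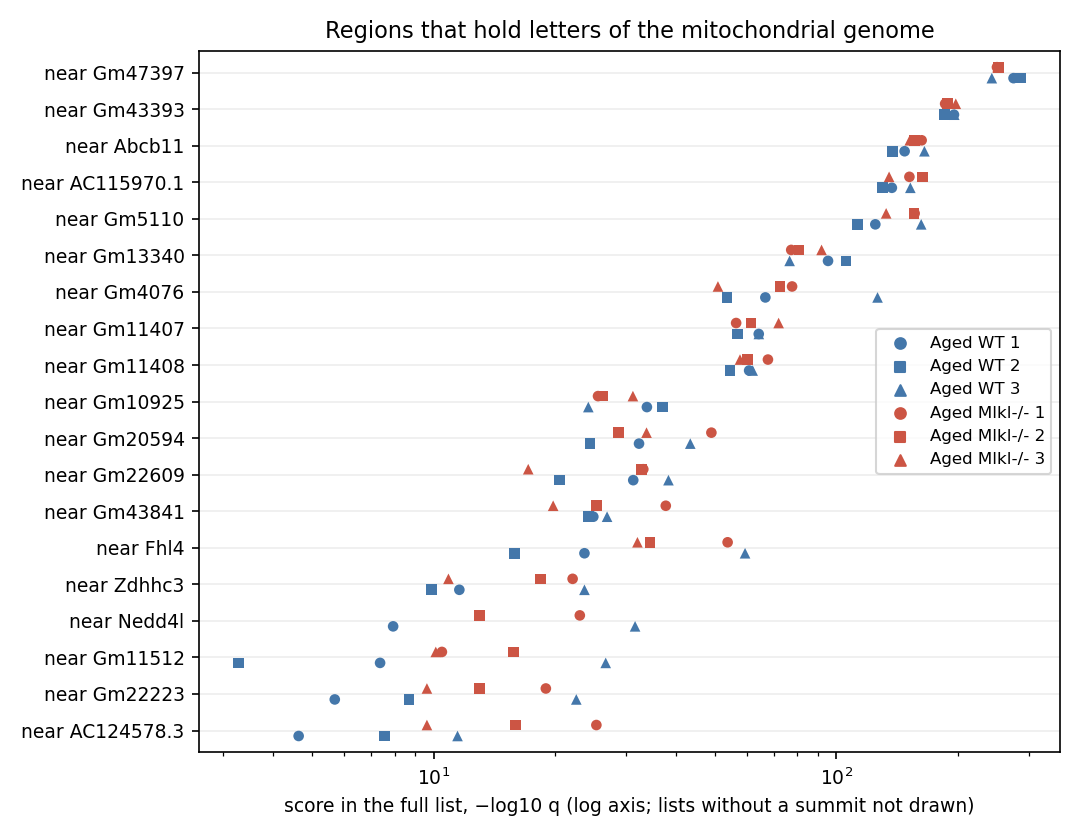
Score (x axis, −log10 q, log axis) in the 6 full aged lists at the 19 tested regions that hold at least 1 run of 36 bases of the mitochondrial genome (y axis, nearest start), blue for WT, red for Mlkl-/-, the shape for the replicate. The genotypes overlap at the strongest regions, and Aged WT 3 is highest at 9 of the 19.

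Regions that opened or closed with age in 1 genotype were read in the lists of the other, which the choice did not use. In all, 792 regions were called in 3 of 3 Aged WT and 0 of 3 Young WT lists. On average 2.39 of the 3 aged (against 2.26 for all tested regions) and 0.784 of the 3 young Mlkl-/- lists called them. All 3 aged Mlkl-/- lists called 489 of the 792 (61.7%, against 59.3% of all tested regions), and none of them called 47 (5.93%, against 9.67%). All tested regions include those called at both ages in WT, which this choice left out, so the shares are not of like regions. The 827 regions called by all Young WT and no Aged WT lists were read in the same way. On average 0.607 of 3 aged (against 2.26) and 1.87 of 3 young Mlkl-/- lists called them. No aged Mlkl-/- list called 493 of them (59.6%, against 9.67%). The same all-or-none difference between ages was met in Mlkl-/- by 262 of the 792 (33.1%) and 135 of the 827 (16.3%), and the opposite one by 0 and 1. Over all 38058 tested regions, 993 opened and 575 closed in Mlkl-/- by this measure.

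Read the other way, the 993 regions opened with age in Mlkl-/- were called by 2.02 aged (against 2.21 for all tested regions) and 0.416 young WT lists. All 3 Aged WT lists called 382 of them (38.5%, against 56.0% of all tested regions), and none called 74 (7.45%, against 9.25%). The same limit holds for these shares. The 575 regions closed in Mlkl-/- were called by 0.835 aged (against 2.21) and 2.15 young WT lists. No Aged WT list called 263 of them (45.7%, against 9.25%). The same all-or-none difference was met in WT by 26.4% of the 993 and 23.5% of the 575. Over all 38058 tested regions, 792 opened and 827 closed in WT.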

How the data were processed

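The authors mapped single-end reads of each library to mm10 with Bowtie2 2.5.3 and called peaks with MACS2 2.2.7.1, per the labels and methods, on each library alone. The deposited lists hold 1 summit per line with a score, the −log10 of the q-value. They hold no read counts, so the depth is unknown, no counting interval can be given and no count model was used.

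Summits of score 3 or more (q of 0.001) on chromosomes 1 to 19 and X were kept and the lists cut to 35696 summits, with ties broken at random. Windows of 250 bp were merged, and ranks within a list turned into normal scores. Uncalled regions of a list shared its lowest, tied rank, and 1 common value where groups were checked for overlap. Ranks were compared with limma 3.58.1 in R 4.3.3 (1 fit over 12 lists, Benjamini-Hochberg adjusted p under 0.01), tested on simulated data first. Single values and counts were compared by exact two-sided permutation over the 10 splits of the 6 lists. Replicates were separate pools per the methods. Starts and genes are from the GENCODE vM21 basic annotation. Motifs were searched within 100 bp of the highest summit, and mitochondrial runs of 36 bases within 250 bp.

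The members, gene lists and tests were chosen with earlier results of these data known. Regions were named by rule: the 12 knockout-only and 12 WT-only regions of widest gap, those without a summit in the full lists of the other genotype, those of 1 genotype at both ages, the 10 distal and 5 start regions with the highest minimum value over aged lists, up to 3 separating regions per gene list with Mlkl and Fos, and the 5 lowest p in each direction. Replicate numbers did not pair the lists (correlations of deviations -0.0570, -0.0410 and -0.192 for replicates 1, 2 and 3). Some items are not reported here. Calculations used Python with numpy, pandas, scipy and pysam.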

Additional observations from a re-analysis of the deposited data

How the results depend on the processing

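The count of regions past the adjusted threshold stayed at 0 under every alternative run, including an adjusted p under 0.05, and with the replicate block it was 0 too, with 1784 regions at an unadjusted limma p under 0.05. Without Aged WT replicate 3 that unadjusted count was 3491 of 38058. The difference in Jaccard index changed sign with lists of unequal length (-0.00292) and ranged from -0.00940 to 0.0220 when 1 replicate was left out. With the 4 tagged lists it was 0.0177 (exact permutation p = 0.333, the smallest that 2 against 2 allows), with 3388 regions (8.90%) at an unadjusted limma p under 0.05. The difference in summits ranged from -2597 to 4632 without 1 replicate. Leaving 1 list out asks fewer lists to agree, so counts grow by construction: knockout-only regions ranged from 423 to 812, WT-only regions from 307 to 502, separating regions from 5606 to 9068, and the shared share from 44.3% to 46.6%. With the 4 tagged lists these were 1266, 876, 12561 and 49.5%. The shared share was 44.5% with unequal lists, 39.96% with windows of 100 bp and 43.8% when merged over the aged lists. At 79 named regions, 1464 of 1465 recomputed differences kept their direction, and the exception was the start of Mlkl with the tagged lists (-0.00924). A second seed for ties and 1 common value for uncalled regions were added after the data were seen and changed no call.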

Other observations

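Knockout-only and WT-only regions were spread over all chromosomes. Knockout-only regions made up between 0.337% of tested regions on chromosome 17 and 1.29% on chromosome X (12 of 933), and WT-only regions between 0.128% on chromosome 12 and 0.813% on chromosome 18. Within 5 Mb of Mlkl, 2 of 176 tested regions were knockout-only and 0 WT-only. In 5 places, 3 knockout-only regions lay within 1 Mb of the next. On chromosome 1 these were 3 regions at Slamf7, Slamf9 and Aim2, genes of lymphocyte adhesion and of DNA sensing. On chromosome 6 they were 3 at Mpp6, Gsdme and Npvf, where Gsdme encodes a pore-forming gasdermin. On chromosome 3 they were 3 at Mbnl1 and B430305J03Rik. Regions were grouped by distance alone, and no test was made of these groups.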
